A study of Mus musculus with 12 samples.

Results

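The IFIT genes (interferon-induced proteins with tetratricopeptide repeats) were followed across cultured mouse hematopoietic stem cells (HSCs) with and without the ETV6-RUNX1 fusion. The family was taken as the 6 genes of the deposited expression table named Ifit1, Ifit1bl1, Ifit1bl2, Ifit2, Ifit3 and Ifit3b, each with a single gene ID, out of 40481 genes; the sum of the near-identical pair Ifit3 and Ifit3b was followed as well. The family was chosen by its known high levels in the ETV6-RUNX1 libraries of these same data, so its differences between genotypes are given below as a description, with no p-value. The study, whose title asks how developmental age shapes the action of ETV6-RUNX1 on stem cell self-renewal and early lymphoid differentiation, measured total RNA in 12 libraries, 3 in each of 4 groups. WT and ETV6-RUNX1 (inducible, iE/R in the labels) HSCs came either from E14.5 fetal livers or from the bone marrow of 8-week-old mice. All 4 groups, WT included, spent 3 days in an HSC expansion culture that held 1 µg/mL doxycycline, the drug that switches on the inducible fusion. The labels give neither the promoter that drives the fusion, nor the strain, the sex, the number of animals per library, or whether replicates came from separate animals, so p-values measure the spread between these libraries only, which may be technical.

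IFIT proteins are made in many cell types after type I interferon or viral RNA is sensed. Interferon-α and interferon-β bind a receptor built of Ifnar1 and Ifnar2, the kinases Jak1 and Tyk2 activate signal transducers such as Stat2, which joins Irf9 in a complex that binds the interferon-stimulated response element (ISRE) of target promoters. Ifit1 binds RNA that carries a triphosphate end or a cap without ribose methylation and blocks its translation; Ifit1 and Ifit2 are also known to bind the translation initiation factor eIF3. HSCs are known to respond to interferon, which can drive them out of quiescence.

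The 6 genes lie side by side on chromosome 19 (GRCm38, GENCODE M21 annotation), within 99.3 kb from 34550694 to 34650009. In order along the chromosome they are Ifit2 (ENSMUSG00000045932, 34550694 to 34576419, plus strand), Ifit3 (ENSMUSG00000074896, 34583531 to 34588731, plus strand), Ifit1bl1 (ENSMUSG00000079339, 34592891 to 34601956, minus strand), Ifit3b (ENSMUSG00000062488, 34607970 to 34613401, plus strand), Ifit1bl2 (ENSMUSG00000067297, 34617049 to 34640743, minus strand) and Ifit1 (ENSMUSG00000034459, 34640871 to 34650009, plus strand). No other gene's exon overlaps theirs. Their promoters were searched for the core of the ISRE, the letters GAAANNGAAA on either strand (TTTCNNTTTC when read on the other strand), in RefSeq windows (build GRCm38.p6) from 250 bases before to 50 bases after each annotated start. Stretches with matches are printed for Ifit1, Ifit3, Ifit3b and the upstream window of Ifit1bl1. They show how closely the promoters of Ifit3 and Ifit3b resemble each other. Capitals mark the matches and each stretch reads 5′ to 3′ on its gene's strand.
Ifit1, chr19:34640755-34640843, plus strand: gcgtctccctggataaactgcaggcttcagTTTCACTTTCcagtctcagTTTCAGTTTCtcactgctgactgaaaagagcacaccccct
Ifit3, chr19:34583343-34583446, plus strand: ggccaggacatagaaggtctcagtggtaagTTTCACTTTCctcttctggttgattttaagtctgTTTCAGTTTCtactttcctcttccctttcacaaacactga
Ifit3b, chr19:34607739-34607842, plus strand: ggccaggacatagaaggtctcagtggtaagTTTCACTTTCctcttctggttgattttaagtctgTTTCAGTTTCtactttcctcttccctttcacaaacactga
Ifit1bl1, chr19:34602033-34602102, minus strand: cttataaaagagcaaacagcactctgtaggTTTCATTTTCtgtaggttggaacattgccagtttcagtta

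Ifit1, Ifit3 and Ifit3b each had 2 matches, spelled with the same letters in all 3 promoters. Relative to the start they lay at positions -104 to -95 and -85 to -76 in Ifit1, at -156 to -147 and -122 to -113 in Ifit3, and at -188 to -179 and -154 to -145 in Ifit3b. The printed stretches of Ifit3 and Ifit3b are the same over all 104 bases, and over their whole windows the aligned bases were 99.2% identical. Ifit1bl1 had 1 match in each of its 2 windows. Ifit1bl2 has 2 annotated starts; the upstream one lies 146 bases from the start of Ifit1 and points away from it, so that this window holds the same 2 matches as Ifit1 on the other strand, while the window of the other start had 0. Ifit2 had 0 matches in both of its windows, which says only that these letters are not there. Of all 32851 windows of this length, 1131 (3.44%) held at least 1 match and 74 (0.225%) held 2 or more. A match describes letters, not a bound site.

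Values are in counts-per-million (CPM), from libraries of 32.3 to 64.5 M reads (M for mega). The floor, set at 3 reads, was 0.0465 CPM in the deepest and 0.0928 CPM in the shallowest library, and covers counting error only. All 7 HSC markers used (Kit, Procr, Slamf1, Mecom, Hlf, Hoxa9 and Fgd5) had a mean of at least 1 CPM in every group. With the fusion 5 of them rose in fetal liver and 5 in bone marrow in limma. Of all genes tested 24.8% and 14.4% were called higher in these sources. The NK and T cell list summed to 1.17 to 2.04 CPM in WT and 0.399 to 2.19 CPM in ETV6-RUNX1 fetal liver. Its T cell marker Cd3e had no reads in any library, while Klrb1c had means of 1.38 and 0.895 CPM in those groups. The B cell list summed to 0.667 to 1.02 and 0.483 to 1.04 CPM there, and to 0.324 to 0.419 and 0.340 to 0.525 CPM in bone marrow. Several marker sums were higher in ETV6-RUNX1 without overlap, as the family was. The summed macrophage list was 42.0 to 49.1 CPM in WT and 114 to 122 CPM in ETV6-RUNX1 fetal liver, and 36.2 to 56.5 and 85.0 to 106 CPM in bone marrow; Cd68 made up most of it in ETV6-RUNX1 fetal liver, where 4 of 8 markers reached 1 CPM. Of the other macrophage markers, Csf1r, the receptor of macrophage colony-stimulating factor, rose in fetal liver from 0.824 ± 0.525 to 10.02 ± 3.30 CPM (limma adjusted p 4.42e-06), Adgre1 stood at 0.0320 and 1.24 CPM, C1qb had 3 and 22 reads, and C1qa was at 0 in 3 of the 4 groups. Others went the other way in fetal liver: Mrc1 stood at 1.47 in WT and 1.25 CPM in ETV6-RUNX1, and C1qc had 5 and 0 reads. Vsig4 had 0 reads in both fetal liver groups. The summed stromal and endothelial list was 7.24 to 9.25 and 16.5 to 17.8 CPM in fetal liver, mostly Cdh5, and overlapped in bone marrow (1.92 to 3.54 and 3.28 to 6.96 CPM). The summed erythroid list was 673 to 935 and 1302 to 2044 CPM in fetal liver, and overlapped in bone marrow (213 to 470 and 377 to 582 CPM). In fetal liver it was mostly the globin gene Hbb-bt, with means of 815 and 1611 CPM. Klf1 alone of this list went the other way there, with means of 0.654 CPM in WT and 0.175 CPM in ETV6-RUNX1. The plasmacytoid dendritic cell list, typical of strong interferon producers, summed to 0.837 to 2.34 CPM in WT and 10.2 to 35.3 CPM in ETV6-RUNX1 fetal liver, and to 0.876 to 0.897 and 2.73 to 5.35 CPM in bone marrow; Pacsin1 was its only marker at or above 1 CPM in ETV6-RUNX1 fetal liver, Klk1 was at 0 in those libraries, and Siglech was at 0 in ETV6-RUNX1 bone marrow. Y-linked genes also separated the genotypes in fetal liver. Ddx3y was at 23.5 to 41.5 CPM in WT and 69.1 to 75.2 CPM in ETV6-RUNX1, and Uty at 9.75 to 18.7 and 41.5 to 47.0 CPM. The female RNA Xist overlapped there (54.4 to 89.3 and 51.7 to 70.1 CPM), as did Ddx3y in bone marrow (68.6 to 122 and 95.7 to 140 CPM). The part of the cell types above and of sex in the results below was not tested. In bulk RNA fewer cells with a transcript and less of it per cell cannot be told apart.

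IFIT transcripts were scarce in WT HSCs and abundant in ETV6-RUNX1 HSCs, most of all in those from fetal liver. The 6 genes together summed to 20.1, 18.8 and 16.9 CPM in the 3 WT fetal liver libraries (replicates 1, 2 and 3), and to 2744, 1429 and 3360 CPM in the ETV6-RUNX1 fetal liver libraries. In bone marrow they summed to 54.5, 98.6 and 49.0 CPM in WT and to 171, 761 and 697 CPM in ETV6-RUNX1. The means were thus 135 times as high in ETV6-RUNX1 as in WT fetal liver and 8.06 times as high in bone marrow. No library of a genotype reached into the range of the other in either source. For each of the 6 genes the mean was highest in ETV6-RUNX1 fetal liver, followed by ETV6-RUNX1 bone marrow, WT bone marrow and WT fetal liver. The plot of levels by library shows this order and the wider spread of the bone marrow groups.

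**Figure D1:**
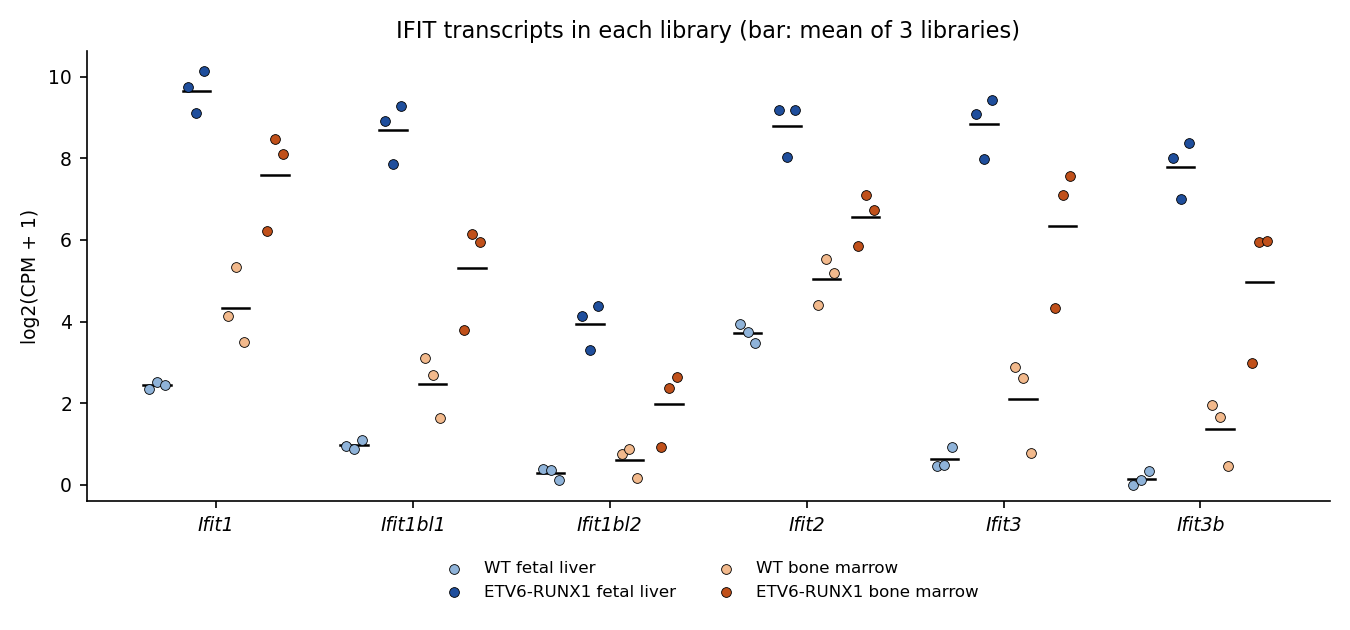
Level of each IFIT gene (y axis, log2(CPM + 1)) in every library, with 1 point per library, 3 per group, and a bar at the mean. In all 6 genes the ETV6-RUNX1 fetal liver points are the highest, and replicate 1 of ETV6-RUNX1 bone marrow (left point) is the lowest of its group.

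Ifit1, which binds foreign RNA ends, had the highest level of the 6 per kb of exon in both ETV6-RUNX1 groups. It stood at 4.11, 4.73 and 4.44 CPM in WT fetal liver and at 860, 548 and 1118 CPM in ETV6-RUNX1 fetal liver. In bone marrow it stood at 16.6, 39.4 and 10.3 CPM in WT and at 74.1, 355 and 273 CPM in ETV6-RUNX1. The WT fetal liver libraries were nearly equal, while both bone marrow groups spread over a factor of 3.83 (WT) and 4.78 (ETV6-RUNX1) between their lowest and highest library. The log2 fold change between genotypes, on the log2(CPM + 1) scale, was 7.22 ± 0.51 (SE, n = 3 against 3) in fetal liver and 3.28 ± 0.51 in bone marrow.

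Ifit3, which in human cells forms a complex with Ifit1 and stabilises it, had the highest log2 fold change of all 14271 genes tested in fetal liver with the pseudocount of 1; with 0.1, in edgeR and in DESeq2 its near-copy Ifit3b was higher (10.20 against 9.52 with 0.1). It stood at 0.368, 0.402 and 0.915 CPM in WT fetal liver and at 544, 250 and 690 CPM in ETV6-RUNX1 fetal liver. The bone marrow values were 6.34, 5.14 and 0.722 CPM in WT and 19.3, 136 and 189 CPM in ETV6-RUNX1. The WT fetal liver values rest on 17 to 59 reads per library, and WT bone marrow replicate 3 lies with them rather than with the other WT bone marrow libraries. The log2 fold change was 8.21 ± 0.70 (SE) in fetal liver and 4.25 ± 0.70 in bone marrow, where it ranked 4 of 14271. Without ETV6-RUNX1 bone marrow replicate 1, the lowest of its group, the bone marrow value was 5.24.

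Ifit3b, the near-copy of Ifit3, followed it at a lower level. It had 0, 5 and 17 reads in the WT fetal liver libraries (0, 0.0837 and 0.264 CPM; 3 reads would be 0.0649 CPM in the library at 0) and stood at 257, 128 and 329 CPM in ETV6-RUNX1 fetal liver. In bone marrow it stood at 2.91, 2.16 and 0.374 CPM in WT and at 6.92, 60.7 and 61.7 CPM in ETV6-RUNX1. The WT fetal liver values are at or close to the floor, so the size of its fold change is set largely by the pseudocount of 1: the log2 fold change in fetal liver was 7.65 ± 0.64 (SE) with it and 10.20 with a pseudocount of 0.1. In bone marrow it was 3.61 ± 0.64. Because a read of 100 bases can match both copies, the pair was also summed: Ifit3 plus Ifit3b stood at 0.368, 0.485 and 1.18 CPM in WT and at 801, 379 and 1019 CPM in ETV6-RUNX1 fetal liver, and at 9.26, 7.30 and 1.10 CPM and 26.2, 197 and 251 CPM in bone marrow. Its log2 fold change was 8.69 ± 0.72 (SE) in fetal liver and 4.30 ± 0.72 in bone marrow, so the difference between genotypes did not depend on how reads were divided within the pair.

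Ifit1bl1, a paralog of Ifit1, differed most between the 2 sources of ETV6-RUNX1 HSCs. It stood at 0.930, 0.853 and 1.13 CPM in WT fetal liver and at 483, 233 and 622 CPM in ETV6-RUNX1 fetal liver. The bone marrow values were 7.68, 5.47 and 2.09 CPM in WT and 12.9, 69.9 and 61.3 CPM in ETV6-RUNX1. Its mean in ETV6-RUNX1 fetal liver was 9.29 times that in ETV6-RUNX1 bone marrow, against 3.60 to 5.52 times for the other 5 genes. The log2 fold change between genotypes was 7.71 ± 0.53 (SE) in fetal liver and 2.82 ± 0.53 in bone marrow.

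Ifit2, whose human counterpart binds AU-rich RNA, led the family per kb of exon in WT fetal liver and had the lowest ratio between genotypes. It stood at 14.4, 12.4 and 10.05 CPM in WT fetal liver and at 583, 261 and 581 CPM in ETV6-RUNX1 fetal liver. In bone marrow it stood at 20.3, 45.6 and 35.4 CPM in WT and at 57.2, 135 and 106 CPM in ETV6-RUNX1, so the groups did not overlap but lay close. The ratio of means was 38.7 in fetal liver and 2.95 in bone marrow, and the log2 fold changes were 5.09 ± 0.36 (SE) and 1.52 ± 0.36. The bone marrow difference of Ifit2 fell short of the threshold without ETV6-RUNX1 bone marrow replicate 2 (log2 fold change 1.26) and when genes with low values were kept in the test.

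Ifit1bl2, the other paralog of Ifit1, had the lowest level per kb of exon in every group but WT fetal liver, where that of Ifit3b was lower (0.0579 against 0.0673 CPM per kb). It stood at 0.303, 0.284 and 0.0930 CPM in WT fetal liver (14, 17 and 6 reads) and had 793, 497 and 667 reads in ETV6-RUNX1 fetal liver (15.2 ± 5.68 CPM, SD). The bone marrow values were 0.686, 0.837 and 0.125 CPM in WT and 0.892, 4.17 and 5.23 CPM in ETV6-RUNX1; the lowest ETV6-RUNX1 library lay just above the highest WT library. The log2 fold change was 3.66 ± 0.39 (SE) in fetal liver and 1.38 ± 0.39 in bone marrow. The pseudocount pulls these low values down, and with 0.1 in its place the fetal liver value was 5.54. In bone marrow the threshold was missed without WT replicate 3 (1.16), without ETV6-RUNX1 replicate 2 (1.18) or 3 (1.05), and with low genes kept in the test. Although its upstream start shares a promoter region with Ifit1, its level per kb of exon was 4.51 CPM per kb in ETV6-RUNX1 fetal liver, against 317 for Ifit1, and 1.02 against 88.1 CPM per kb in ETV6-RUNX1 bone marrow.

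Over the family, all 6 genes had an adjusted p under 0.05 in limma and were higher in ETV6-RUNX1 fetal liver, where 24.8% of all 14271 genes tested were called higher and 18.3% lower; the median log2 fold change was 7.43 over the 6 genes and 0.08 over all genes. In bone marrow all 6 were called higher too, where 14.4% of genes were called higher and 4.93% lower, and the medians were 3.05 and 0.13. All 6 genes had every ETV6-RUNX1 library above every WT library in both sources, as had 32.3% of all genes tested in fetal liver and 23.6% in bone marrow. These counts describe the choice of the family and support nothing. Only Ifit1, Ifit1bl1 and Ifit2 reached 1 CPM in 3 or more WT libraries; Ifit1bl2, Ifit3 and Ifit3b passed the filter on low values through their ETV6-RUNX1 libraries. Both other scalings (median-of-ratios and TMM), edgeR and DESeq2 left the direction of all 6 genes as it was. Of the genes called in bone marrow, 74.5% were higher in ETV6-RUNX1, and 50.6% with median-of-ratios and 50.8% with TMM scaling, which moved the median of all genes from 0.13 to -0.00 and -0.01.

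**Figure D2:**
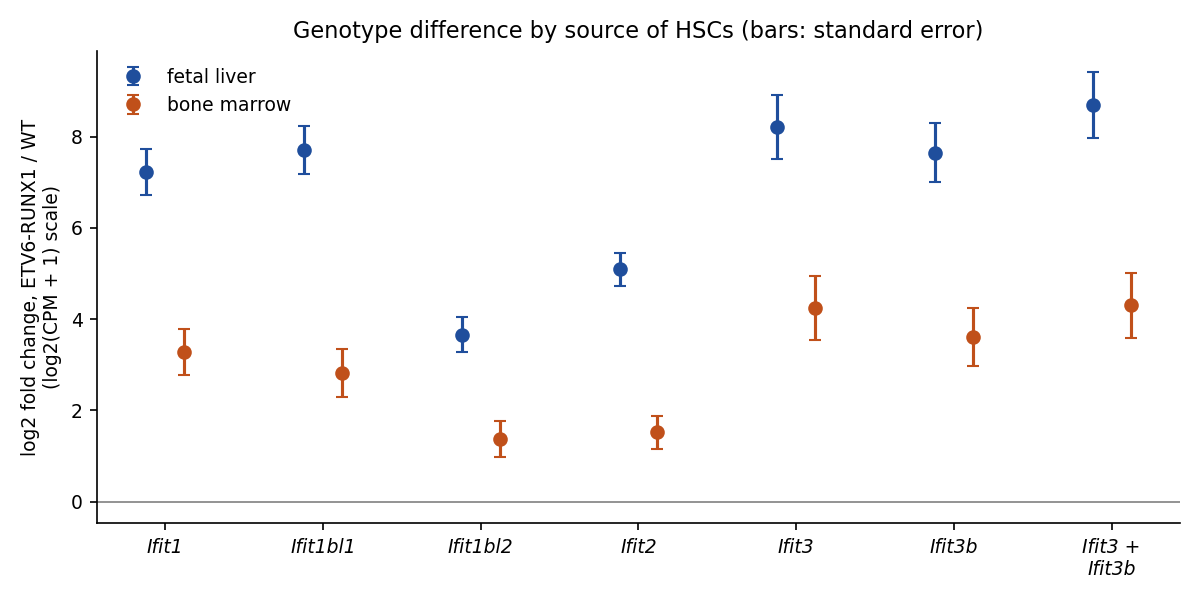
Log2 fold change of ETV6-RUNX1 over WT (y axis, log2(CPM + 1) scale) for each IFIT gene and for the summed pair, in fetal liver and bone marrow; bars are standard errors from limma, 3 libraries per group. Every fetal liver value lies above the bone marrow value of the same gene, from 3.66 against 1.38 for Ifit1bl2 to 8.21 against 4.25 for Ifit3.

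The genotype difference was larger in fetal liver than in bone marrow for every member. The difference of the log2 fold changes (the interaction) was 4.89 ± 0.75 (SE) for Ifit1bl1, 4.04 ± 0.90 for Ifit3b, 3.96 ± 0.99 for Ifit3, 3.94 ± 0.71 for Ifit1, 3.57 ± 0.51 for Ifit2 and 2.28 ± 0.55 for Ifit1bl2. All 6 were called more positive in fetal liver, as were 5.56% of all genes, with medians of 3.95 and -0.05. This count also enters the choice of the family. Of the genes called in this comparison 60.6% were more positive in fetal liver, against 74.5% with median-of-ratios and 72.1% with TMM scaling. The means of both genotypes differed between sources: the members were 3.60 to 9.29 times as high in ETV6-RUNX1 fetal liver as in ETV6-RUNX1 bone marrow, and 2.42 to 15.7 times as high in WT bone marrow as in WT fetal liver. In all 6 genes every ETV6-RUNX1 fetal liver library lay above every ETV6-RUNX1 bone marrow library, which held for 14.4% of all genes tested. The interaction of Ifit3 missed the threshold without WT fetal liver replicate 2 (3.89), ETV6-RUNX1 fetal liver replicate 1 (3.83) or WT bone marrow replicate 2 (3.70), and that of Ifit1bl2 without ETV6-RUNX1 fetal liver replicate 1 (2.18) or WT bone marrow replicate 2 (2.14).

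In 3 of the 4 groups most members were low in the same library. In ETV6-RUNX1 fetal liver, replicate 2 was the lowest for all 6 genes, and replicate 3 the highest for 5 of them; for Ifit2, replicate 1 (583 CPM) and replicate 3 (581 CPM) were nearly equal. In ETV6-RUNX1 bone marrow, replicate 1 was the lowest for all 6 genes, by a factor of 2.37 below the highest library for Ifit2 and up to 9.80 for Ifit3. In WT bone marrow, replicate 3 was the lowest for 5 genes, whereas Ifit2 was lowest in replicate 1. In WT fetal liver, where most levels rest on few reads, no such order was seen: Ifit2 and Ifit1bl2 were highest in replicate 1 and lowest in replicate 3, Ifit3 and Ifit3b were highest in replicate 3 and lowest in replicate 1, and Ifit1 was highest in replicate 2. Replicate numbers only name libraries here.

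The IFIT genes were also compared between the WT groups of both sources. This WT difference is a part of the interaction, whose values also led to the choice of the family. The p-values and counts below are therefore not independent of that choice and are given as a description. The fold changes here use WT libraries alone, but the spread behind each SE and p was estimated from all 12 libraries, ETV6-RUNX1 included; the limma adjusted p of Ifit1bl1, for example, was 0.0893 with all libraries, 0.0172 without ETV6-RUNX1 bone marrow replicate 1 and 0.0162 with only the WT libraries. Ifit1 was lower in fetal liver (4.43 ± 0.314 CPM, SD, n = 3) than in bone marrow (22.1 ± 15.3 CPM), with a log2 fold change of -1.88 ± 0.51 (SE, limma adjusted p 0.0257). Ifit2 was lower as well (12.3 ± 2.17 against 33.8 ± 12.7 CPM, log2 fold change -1.33 ± 0.36, limma adjusted p 0.0260). The other 4 genes had lower means in fetal liver and did not pass in limma: the log2 fold change was -1.50 ± 0.53 for Ifit1bl1, -1.47 ± 0.70 for Ifit3 (adjusted p 0.207), -1.21 ± 0.64 for Ifit3b (adjusted p 0.256) and -0.31 ± 0.39 for Ifit1bl2 (adjusted p 0.657). Ifit1bl2, Ifit3 and Ifit3b entered this test only because of their ETV6-RUNX1 libraries. Of the 3 genes that pass the filter on WT libraries alone, 2 were called lower in fetal liver, against 7.77% of all genes tested, and each had every bone marrow library above every fetal liver library, against 18.9%. Of all genes called here 30.3% were higher in fetal liver, and 41% with either other scaling.

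Both calls depended on single libraries. The limma adjusted p of Ifit1 became 0.0756, 0.0605 and 0.0751 without WT fetal liver replicate 1, 2 or 3 and 0.142 without WT bone marrow replicate 2 (over all alternatives 0.00177 to 0.142), and that of Ifit2 became 0.0645 and 0.107 without WT fetal liver replicate 2 or 3 and 0.137 and 0.0835 without WT bone marrow replicate 2 or 3 (7.65e-04 to 0.137). Xist, the RNA that coats the silenced X in females, also separated these WT groups, at 54.4 to 89.3 CPM in fetal liver and 0.175 to 0.324 CPM in bone marrow. The Y-linked gene Ddx3y was present in both, at 23.5 to 41.5 CPM in fetal liver and 68.6 to 122 CPM in bone marrow. The fetal liver libraries may thus pool both sexes. The summed neutrophil markers did not separate the WT groups but spread widely in WT bone marrow (2.99 to 131 CPM, against 17.1 to 19.9 CPM in WT fetal liver). Ltf made up nearly all of the fetal liver sum, with a mean of 18.0 CPM, against 10.7 CPM in WT bone marrow. The rest of the list had higher means in WT bone marrow. S100a8 stood at 0 to 0.0649 CPM in WT fetal liver and 0.125 to 49.4 CPM in WT bone marrow, and Ngp at 0 and 0 to 36.9 CPM. The part of sex and of neutrophils in the difference was not tested, and source, age and sex cannot be told apart in this design.

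Of the tested genes around the family, 0 were called higher in ETV6-RUNX1 fetal liver by limma, edgeR or DESeq2 with all libraries. Without WT fetal liver replicate 3 limma called 1, Fas. Over all genes tested limma called 24.8% higher and 18.3% lower in fetal liver, and 14.4% higher and 4.93% lower in bone marrow. With only 5 neighbours tested, counts of calls among them cannot be told from these shares. The table holds 13 other genes within 300 kb of the 6, of which 5 passed the filter on low values; 2 of these 5 (Fas and Kif20b) had an unadjusted limma p under 0.05 in fetal liver. Lipa, a lysosomal lipase gene 23220 bases before Ifit2, stood at 56.3 ± 2.40 CPM (SD, n = 3) in WT and 64.0 ± 9.59 CPM in ETV6-RUNX1 fetal liver (log2 fold change 0.17 ± 0.14 SE, limma adjusted p 0.341), and at 63.1 ± 7.05 and 66.9 ± 5.19 CPM in bone marrow (0.09 ± 0.14, adjusted p 0.700). Slc16a12, a solute carrier gene 18394 bases beyond Ifit1, rose in bone marrow from 5.70 ± 0.350 to 14.47 ± 0.464 CPM (1.21 ± 0.21, limma adjusted p 0.00202), a call that was lost with a pseudocount of 0.1 and in edgeR but not in DESeq2. In fetal liver it stood at only 0.671 ± 0.141 CPM in WT and 0.416 ± 0.451 CPM in ETV6-RUNX1 and did not pass (-0.28 ± 0.21, limma adjusted p 0.305); the difference between sources was -1.49 ± 0.30 (limma adjusted p 0.00711), opposite in sign to that of every IFIT gene. The death receptor gene Fas had log2 fold changes of 0.58 and 0.36 and Pank1 of -0.24 and 0.12, and neither passed. Kif20b, a kinesin gene, fell in fetal liver (-0.52 ± 0.16, limma adjusted p 0.0157), but was not called without WT fetal liver replicate 2 or ETV6-RUNX1 fetal liver replicate 1. The plot along the locus shows that both edges of the family are steep in fetal liver. In bone marrow Slc16a12 (1.21) lay close to Ifit1bl2 (1.38) and Ifit2 (1.52).

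**Figure D3:**
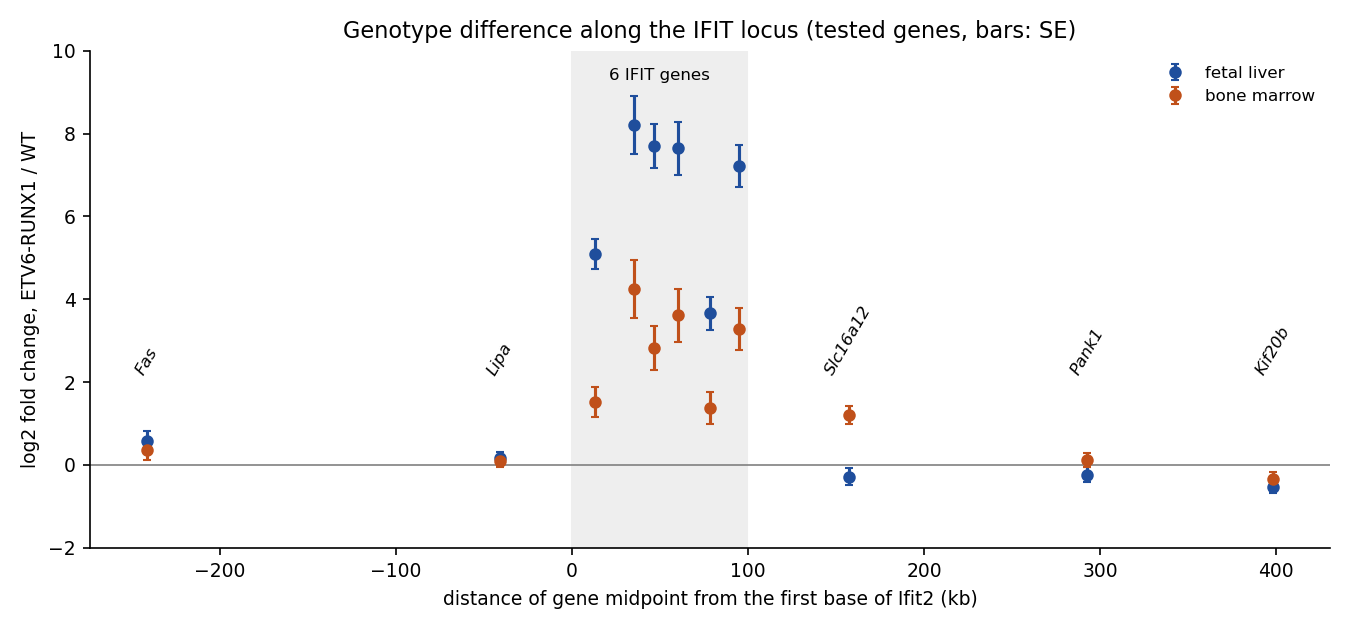
Log2 fold change of ETV6-RUNX1 over WT (y axis) of the 6 IFIT genes (shaded) and of the 5 tested neighbours against the distance of each gene's midpoint from the first base of Ifit2 (x axis, kb), in both sources; bars are standard errors. The neighbours lie between -0.52 and 1.21, the IFIT genes between 1.38 and 8.21.

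The makeup of the family was not the same in WT and ETV6-RUNX1 cells. In WT fetal liver Ifit2 held 65.7 ± 6.05% (SD, n = 3) of the summed CPM of the 6 genes and Ifit1 24.0 ± 3.10%, while Ifit3 and Ifit3b together held under 10% in every library. In ETV6-RUNX1 fetal liver Ifit1 held 34.3 ± 3.61%, Ifit3 19.3 ± 1.58%, Ifit2 18.9 ± 2.06%, Ifit1bl1 17.5 ± 1.13%, Ifit3b 9.37 ± 0.403% and Ifit1bl2 0.609 ± 0.0146%. Since longer transcripts yield more reads, levels between genes were compared per kb of exon: Ifit1 stood at 317 CPM per kb in ETV6-RUNX1 fetal liver, Ifit3 at 284, Ifit1bl1 at 197, Ifit2 at 121, Ifit3b at 119 and Ifit1bl2 at 4.51. In WT fetal liver, by contrast, Ifit2 led with 3.13 CPM per kb, ahead of Ifit1 with 1.67. In WT bone marrow their means were close (8.60 and 8.32 CPM per kb), with Ifit1 the higher of the pair in replicates 1 and 2 and Ifit2 in replicate 3.

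The 2 sources of ETV6-RUNX1 HSCs differed in this makeup mainly in Ifit1bl1 and Ifit1. Ifit1bl1 held 16.3 to 18.5% of the family in the fetal liver libraries and 7.55 to 9.18% in the bone marrow libraries, a difference of 8.96 percentage points. Ifit1 held 31.3 to 38.3% and 39.2 to 46.6%, a difference of -8.71 points. Ifit3b held 8.97 to 9.78% and 4.04 to 8.85%. For these 3 genes the libraries of the 2 sources did not overlap; a two-sided exact permutation test gave p = 0.1 for each, the smallest it can give with 3 against 3 (adjusted over the 6 genes 0.2), so the design cannot reach 0.05. Ifit2 (18.9 against 22.1 ± 9.81%), Ifit3 (19.3 against 18.8 ± 7.98%) and Ifit1bl2 (0.609 against 0.606 ± 0.126%) overlapped, with exact permutation p of 0.9 to 1. The difference of Ifit3b shrank from 2.42 to 0.957 points without ETV6-RUNX1 bone marrow replicate 1.

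**Figure D4:**
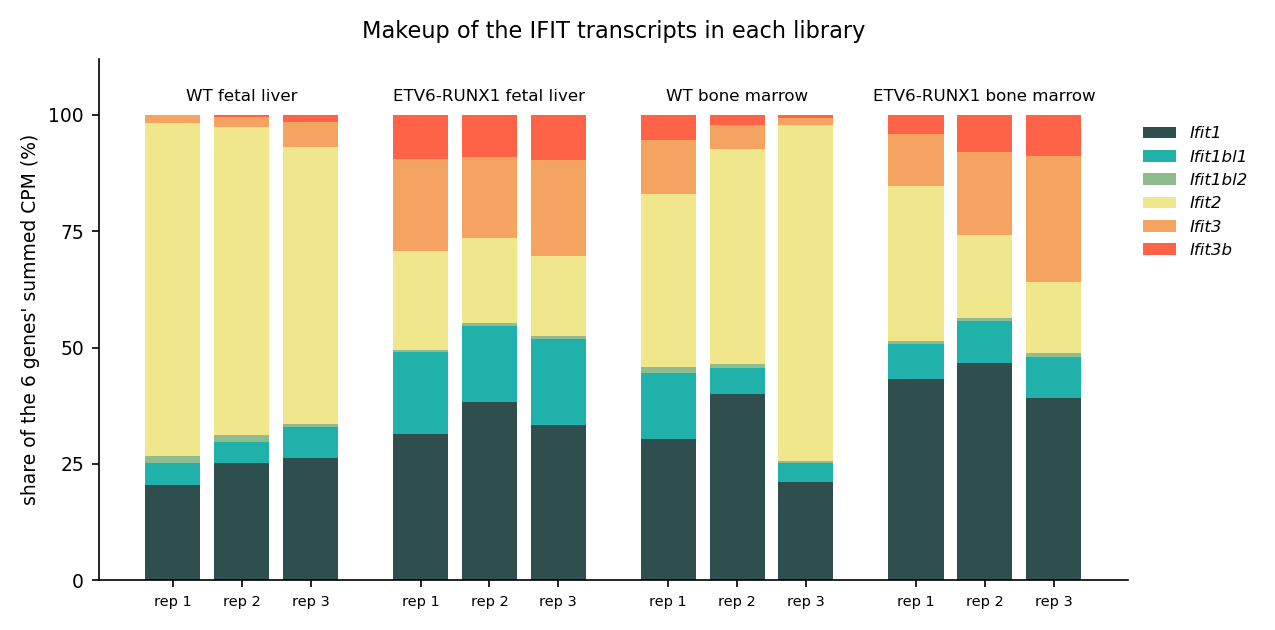
Share of each IFIT gene in the summed CPM of the 6 genes (y axis, %) in each of the 12 libraries, stacked to 100%. Ifit2 fills the largest part of every WT library, and Ifit1bl1 is wider in ETV6-RUNX1 fetal liver (16.3 to 18.5%) than in ETV6-RUNX1 bone marrow (7.55 to 9.18%).

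How well reads can be assigned to single members differs. Of the 1646 distinct 100-base stretches of the Ifit3 transcript, 521 (31.7%) also occur in Ifit3b, and these are 27.4% of those of Ifit3b. The longest transcripts of the pair are 98% identical over their aligned bases. The other shared stretches are few: 3.29% of Ifit1 and 2.91% of Ifit1bl2, 0.51% of Ifit1bl1 and none of Ifit2, and other pairs of members are 62.3 to 90.5% identical. Ifit3b received 32.6% of the reads of the pair in ETV6-RUNX1 fetal liver (95% Wilson interval 32.3 to 32.9, counting error only) and 27.3% in ETV6-RUNX1 bone marrow (26.6 to 28.0). It received 18.0% in WT fetal liver (12.2 to 25.8, on 122 reads) and 30.8% in WT bone marrow (27.9 to 33.9). By library the share was 32.1 to 33.9% in ETV6-RUNX1 fetal liver and 24.6 to 30.8% in ETV6-RUNX1 bone marrow, without overlap (exact permutation p = 0.1, two-sided, the smallest possible). How reads that match both copies were counted is not given in the sources used here, so these shares are uncertain.

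The pathway that controls IFIT genes was described with lists of its ligands, receptors, signal transducers and feedback genes. Among 20 interferon genes, Ifnb1, which encodes interferon-β, was the only one that passed the filter, and it did so through the ETV6-RUNX1 fetal liver libraries. It stood at 3.31 ± 1.37 CPM there (SD, 423 reads in the 3 libraries) and at 0 to 0.0865 CPM in WT fetal liver (4 reads), and since it was tested only because of the group where it is high, no p is given. Its log2 fold change was 2.02 ± 0.21 (SE) with the pseudocount of 1, 4.72 with 0.1, 6.84 in edgeR and 6.97 in DESeq2. Without any 1 of the ETV6-RUNX1 fetal liver libraries it no longer passed the filter. In bone marrow it had 4 reads in WT and 18 reads in ETV6-RUNX1 (log2 fold change 0.20 ± 0.21, 1.14 with a pseudocount of 0.1, 2.43 in edgeR and 2.56 in DESeq2). Ifna2 had 18 reads and Ifna4 14 reads in ETV6-RUNX1 fetal liver, those of Ifna4 all in 1 library, and none in the other groups. Others of the list had more reads in WT fetal liver: Ifnk had 42 reads there and 7 in ETV6-RUNX1 fetal liver (3 and 13 in bone marrow), and Ifnab had 20 and 11 reads in the WT fetal liver and bone marrow groups and 0 in both ETV6-RUNX1 groups. These 4 genes were named after their values were seen. The interferon-γ gene Ifng had no read in either ETV6-RUNX1 group.

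Of 6 receptor chains 5 were tested; 2 rose in fetal liver and 3 in bone marrow (24.8% and 14.4% of all genes tested were called higher), none fell, and the median log2 fold change was 0.57 and 0.80 (all genes 0.08 and 0.13). Ifnar1, a chain of the type I receptor, rose in fetal liver from 28.5 ± 4.65 to 51.0 ± 5.40 CPM (SD, n = 3; log2 fold change 0.83 ± 0.19 SE, limma adjusted p 0.00281) and had 0.53 ± 0.19 in bone marrow (adjusted p 0.0625). Ifngr1, a chain of the interferon-γ receptor, rose in both sources (0.57 ± 0.12, limma adjusted p 0.00211, and 0.43 ± 0.12, adjusted p 0.0276). Ifngr2 and Il10rb rose in bone marrow (1.27 ± 0.35, limma adjusted p 0.0207, and 0.80 ± 0.21, adjusted p 0.0193) and had 0.86 ± 0.35 and 0.53 ± 0.21 in fetal liver (0.0584 and 0.0591); the difference between sources was called for neither gene. The bone marrow count of 3 became 0 when ETV6-RUNX1 bone marrow replicate 1 or 2 was left out, 1 when WT replicate 1 was, and 5 when ETV6-RUNX1 replicate 3 was. The fetal liver count of 2 became 4 when ETV6-RUNX1 fetal liver replicate 2 or ETV6-RUNX1 bone marrow replicate 3 was left out.

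All 5 signal transducers used rose in fetal liver and 3 of 5 in bone marrow, where 24.8% and 14.4% of all genes were called higher; the median log2 fold changes were 1.18 and 0.80 (all genes 0.08 and 0.13). Stat2 rose from 28.3 ± 6.03 to 499 ± 69.4 CPM in fetal liver (limma log2 fold change 4.10 ± 0.24 SE, adjusted p 2.19e-08) and from 48.6 ± 15.5 to 217 ± 66.2 CPM in bone marrow (2.14 ± 0.24, adjusted p 1.5e-04). Irf9, its partner on the ISRE, rose by 2.31 ± 0.17 and 1.04 ± 0.17 (limma adjusted p 1.72e-07 and 0.0015). Jak2 rose in fetal liver (1.18 ± 0.15, limma adjusted p 3.40e-05) and had 0.34 ± 0.15 in bone marrow (adjusted p 0.130). Tyk2, a kinase of the type I receptor, likewise rose in fetal liver (1.15 ± 0.25, limma adjusted p 0.00226) and had 0.41 ± 0.25 in bone marrow (adjusted p 0.272).

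Of 4 feedback genes, Isg15, Usp18 and Socs3 were called higher in both sources, where 24.8% and 14.4% of all genes were called higher. Socs1 is left out of this count, because only the group where it is high brought it into the test. With a filter at a mean of 5 CPM, which removes Socs1, the medians were 4.72 and 1.57. Isg15, a ubiquitin-like protein, rose from 8.19 ± 0.771 to 560 ± 201 CPM in fetal liver (limma, 5.86 ± 0.44 SE, adjusted p 1.79e-07) and from 19.7 ± 6.47 to 155 ± 95.7 CPM in bone marrow (2.71 ± 0.44, adjusted p 0.00135). Usp18, which removes Isg15 from proteins and damps the type I receptor, rose by 4.72 ± 0.37 and 1.57 ± 0.37 (limma adjusted p 2.66e-07 and 0.0103). Socs3 rose in both sources (1.15 ± 0.33 and 1.43 ± 0.33, limma adjusted p 0.0118 and 0.00944). Socs1 reached 1 CPM in ETV6-RUNX1 bone marrow alone and was tested only because of that group, so no p is given: it stood at 0.356 ± 0.104 CPM in WT and 1.42 ± 0.253 CPM in ETV6-RUNX1 bone marrow (0.84 ± 0.19) and at 0.308 ± 0.170 and 0.701 ± 0.308 CPM in fetal liver (0.37 ± 0.19). It left the test when any library of that group was left out; without ETV6-RUNX1 bone marrow replicate 2, 2 of the 3 genes still tested were called.

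The molecules that IFIT proteins act on were listed as well. Of 5 genes that form or methylate the mRNA cap, limma called 1 higher and 1 lower in fetal liver, and 3 did not pass. These counts are near the shares of all genes tested, 24.8% higher and 18.3% lower (14.4% and 4.93% in bone marrow). Cmtr1, which methylates the ribose that Ifit1 senses, rose in fetal liver from 2.52 ± 0.295 to 5.45 ± 0.727 CPM (0.87 ± 0.26 SE, limma adjusted p 0.0144). Rnmt, which methylates the cap guanine, fell there (-0.39 ± 0.11, limma adjusted p 0.0126). The rise of Cmtr1 was not called without WT fetal liver replicate 3 or ETV6-RUNX1 fetal liver replicate 1, nor the fall of Rnmt without ETV6-RUNX1 fetal liver replicate 3. In bone marrow 0 of the 5 passed in limma, 1 had an unadjusted p under 0.05 and 1 was called lower by edgeR and by DESeq2; Rnmt was nearest in limma (-0.34 ± 0.11, adjusted p 0.0502). Of 13 eIF3 subunits, 11 fell in fetal liver and none rose, with a median log2 fold change of -0.65 against 0.08 over all genes; 3 fell in bone marrow, with a median of -0.23. Of all genes tested 18.3% were called lower in fetal liver and 4.93% in bone marrow. Eif3i fell from 610 ± 44.3 to 273 ± 6.85 CPM in fetal liver (limma, -1.16 ± 0.13 SE, adjusted p 1.22e-05) and from 499 ± 77.2 to 364 ± 44.3 CPM in bone marrow (-0.45 ± 0.13, adjusted p 0.0300). Eif3j1, Eif3g and Eif3l fell in fetal liver by 1.06, 0.92 and 0.88 on the log2 scale. Under TMM scaling the counts were 12 in fetal liver and 5 in bone marrow. The bone marrow count became 1 when replicate 1 of either bone marrow group was left out, and 0 when ETV6-RUNX1 bone marrow replicate 2 was.

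**Figure D5:**
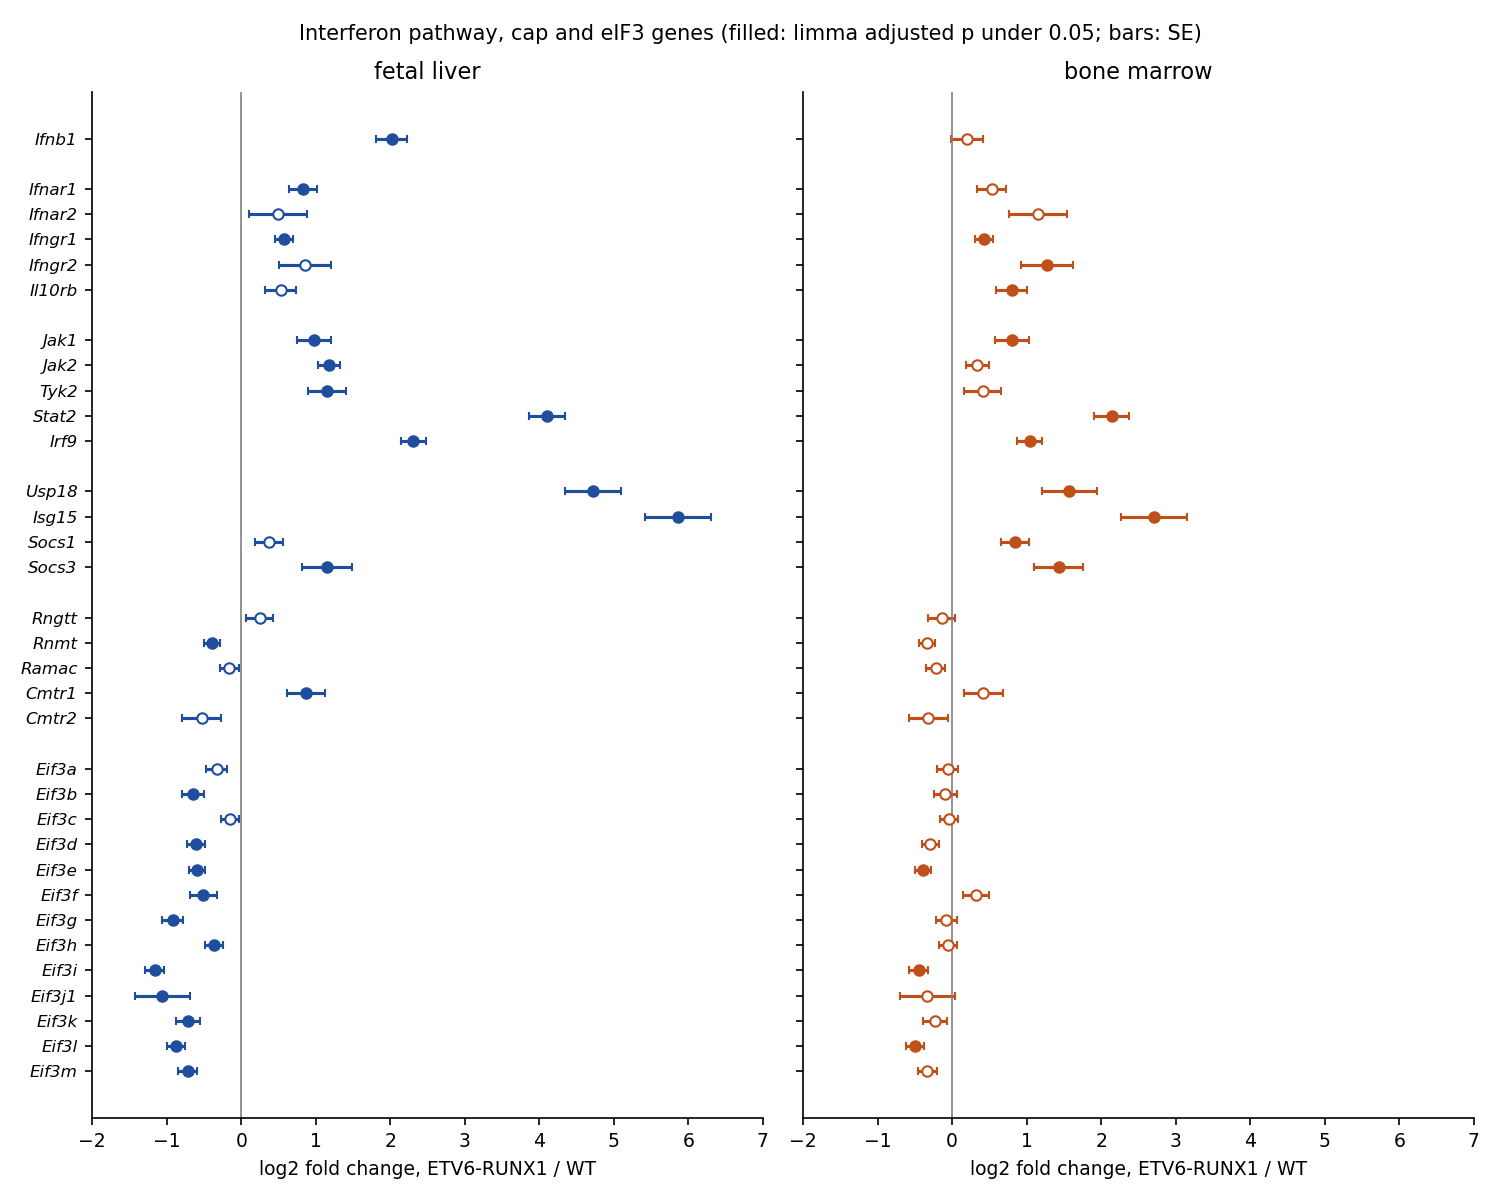
Log2 fold change of ETV6-RUNX1 over WT (x axis) of the tested interferon, receptor, signal transducer, feedback, cap and eIF3 genes in fetal liver (left) and bone marrow (right); bars are standard errors and filled points passed limma's adjusted p of 0.05 (Ifnb1 and Socs1 were tested only because of the group where they are high). Isg15, Usp18 and Stat2 lie farthest right in both panels, and 11 of 13 eIF3 points are filled and left of 0 in fetal liver.

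The 8 genes whose pattern over the 12 libraries was most like the average of the family were found by the root mean square difference of their mean-centred log2(CPM + 1). They were Isg15 (0.30), Mx1 (0.31), Apol9a (0.44), Ctss (0.46), Irf7 (0.51), Oasl1 (0.51), Rsad2 (0.54) and Apol9b (0.56), where the median over all genes tested was 2.62. The members themselves lay between 0.44 (Ifit1) and 1.17 (Ifit1bl2) from their own average, so Isg15 and Mx1 lay closer to it than any member did. Mx1, a dynamin-like antiviral GTPase, stood at 0.406 ± 0.0339 CPM in WT and 117 ± 47.1 CPM in ETV6-RUNX1 fetal liver, and at 1.54 ± 1.55 and 18.8 ± 12.2 CPM in bone marrow. Irf7, a transcription factor of the interferon system, stood at 19.3 ± 0.651 and 1489 ± 279 CPM and at 68.0 ± 48.9 and 557 ± 267 CPM. With a pseudocount of 0.1, 5 of the 8 remained among the 8 nearest, and Apol9a, Rsad2 and Apol9b did not. Of the 7 with a RefSeq promoter window, 5 held the ISRE core there, with 3 matches in that of Isg15, against 3.99% of all genes with a window.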

How the data were processed

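Per the labels' protocols, RNA was purified with a single-cell kit, made into stranded total RNA libraries for small inputs and sequenced as pairs of 100-base reads. The submitters' processing notes name GRCm38, bcl2fastq, STAR 2.5.1a, Subread, featureCounts 1.4.6-p5, Salmon 0.8.2, edgeR and limma, without roles; the use of strand, the annotation and the handling of reads with several matches are not given in the sources used here. The authors deposited CPM per gene. Every value was a whole multiple of its library's step (100% within 0.01), so whole reads were recovered; gene IDs listed more than once (276 of 40757 entries) were reduced to their first entry.

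Tests used log2(CPM + 1) of the 14271 genes that reached 1 CPM in 3 or more libraries; limma 3.58.1 (R 4.3.3; eBayes with trend, 4 groups, no covariate, two-sided, Benjamini-Hochberg over all genes tested, threshold 0.05) gave fold changes and calls; the procedure was tested on simulated data. Shares were compared by exact permutation of libraries. Alternatives were a pseudocount of 0.1, other filters, median-of-ratios and TMM scaling, a replicate block, edgeR 4.0.16 and DESeq2 1.42.0 on recovered reads, only the libraries compared, and leaving out each library. No 2 libraries were identical. The members, the lists and the tests were chosen with earlier results of these data known. Named were all members and, of each list, at most 4 tested genes with the largest fetal liver change, plus genes whose role is explained. Some genes of these lists are not reported here.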

Additional observations from a re-analysis of the deposited data

Results flagged for a closer look

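Of the members, the named pathway genes and the tested neighbours, 15 genes are given here because the difference between genotypes itself differed between fetal liver and bone marrow in limma (interaction, adjusted p under 0.05; of all 14271 genes tested 1311 were called, and 5.56% were more positive in fetal liver). In log2 units, fetal liver minus bone marrow, the members had 3.94 (Ifit1), 4.89 (Ifit1bl1), 2.28 (Ifit1bl2), 3.57 (Ifit2), 3.96 (Ifit3) and 4.04 (Ifit3b), values that also led to the choice of the family. Of the pathway genes, Isg15 had 3.16, Usp18 3.15, Stat2 1.96, Ifnb1 1.82, Irf9 1.27 and Jak2 0.84. The eIF3 genes Eif3g and Eif3i had -0.84 and -0.71: both had the lower log2 fold change in fetal liver. The neighbouring gene Slc16a12 had -1.49. Ifnb1 passed the filter on low values only through ETV6-RUNX1 fetal liver, the group where it is high.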

How the results depend on the processing

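The labels share replicate numbers between groups, but same-numbered libraries did not deviate together (correlations -0.44 to 0.39, above 0.1 in 7 of 18 pairs), so the numbers were not taken to pair them. With the replicate block the calls were 5838 in fetal liver (6151 without it), 2334 in bone marrow (2763), 1033 for the interaction (1311) and 1425 between WT sources (1591), and no call of a member changed. The bone marrow calls numbered 1678 with only the libraries compared and 1493 to 2901 when each library was left out (1829 without ETV6-RUNX1 bone marrow replicate 1, 1493 without replicate 2). The interaction calls numbered 767 without a filter and 697 to 2329 with a library left out: 2329 without WT bone marrow replicate 1, and 697 to 868 without WT fetal liver replicate 2 or 3, ETV6-RUNX1 fetal liver replicate 1 or 2, WT bone marrow replicate 2 or ETV6-RUNX1 bone marrow replicate 1. Those between WT sources numbered 864 to 2785 (2785 and 864 without WT bone marrow replicate 1 and 2, 899 without WT fetal liver replicate 3). All 6 members kept the direction and call of their fetal liver difference under every alternative that could be fitted (Ifit1bl2 had no value with a mean of at least 5 CPM), with values of 3.44 to 10.86. Without a filter, the interaction of Ifit1bl2, Ifit3 and Ifit3b, the bone marrow difference of Ifit1bl2 and Ifit2, and the WT difference of Ifit1 and Ifit2 missed the threshold. The interaction needs all groups and was not fitted with fewer. No member's fold change reversed under the alternatives run. Small differences in share reversed: Ifit1bl2 was -0.0108 points per kb of exon and ranged from -0.0405 to 0.0747 with a library left out (0.00257 with all), Ifit2 from -6.64 to 2.42 (-3.19) and Ifit3 from -3.23 to 4.71 (0.520). Between WT sources Ifit1bl1 passed under 6 of 21 alternatives. Ifit3b passed under 3 of 20 and Ifit3 under 1 of 20, but both entered that test only through their ETV6-RUNX1 libraries, so these passes count for nothing. Where the levels lie at a few reads, as for Ifit3b, Ifit1bl2 and Ifit3 in WT fetal liver, depth limits how precisely the fold change is known.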
